A study of Mus musculus with 13 samples.

Results

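The insertion sites described here are those of a pool of mouse cells that carried many independent copies of a Sleeping Beauty transposon and that were each seen in at least 5 sequencing reads. The library is the plasmid pool, in which the transposons were delivered on transfected plasmids. Deposited positions within 10 bp of a neighbour were merged into 1 site, with both strands together, and the reads were added up. Sites on chromosomes 1 to 19 with 5 or more reads were kept, which gave 1760 well supported sites. They were 5.65% of the 31146 sites of the plasmid pool and were set against the 13556 autosomal sites of the same library that had 1 read. Over the 12 libraries analysed here there were 31949 sites. The members were chosen by their number of reads, so read numbers are given below as a description, and the tests concern where the sites lie in the genome.

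F123 cells are CastX129 hybrid mouse embryonic stem cells, grown without serum in 2i and LIF, which hold them in the naive state. The libraries record where transposons landed, read by transcribing outward from a T7 promoter inside the transposon on purified genomic DNA. Per the labels the plasmid pool is of wild type genotype, as are the control without transposons and the pool after remobilization from a parental line (the remobilized pool), while 9 clonal lines have the genotype rad21-dTag, a degradation tag on the Rad21 subunit of cohesin. The parental line was not analysed here. Each library is the only one of its group, so every p-value compares classes of sites within 1 library, with sites as the units, and no comparison has a replicate check. The plasmid pool held 63031 placed reads and the control 0. The remobilized pool had 746 sites.

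Sleeping Beauty moves by excision and reinsertion. Its transposase joins the transposon to a TA in the target, which is duplicated on both sides of the new copy. The element is known as one with little preference for genes or for the starts of genes, and for that reason it is used for mutagenesis screens and for gene delivery. In a pool, the reads at a site can follow the number of cells that carry the insertion, the yield of T7 transcription there and amplification of the library, and these cannot be told apart.

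The target bases themselves are shown first. They could be read only where an annotated exon (GENCODE M21) or a RefSeq promoter window (GRCm38.p6) covers the site, which was so for 109 of the 1760 well supported sites. The 9 well supported sites that lay in a coding exon outside dense windows (defined below) are printed because their bases are unique to 1 place among the readable members. They are not typical of the members, most of which lay in introns or outside genes, and each had 5 to 7 reads. The lines give 22 bases of GRCm38, 5′ to 3′ on the strand of the site as deposited, with the TA nearest to the deposited base in capitals.
Tent5b, chr4:133486517-133486538, plus strand: catccacaccTAtgtcggaggc
Lactb, chr9:66970891-66970912, minus strand: atttcgcattTAagtggaattc
Acsl5, chr19:55278174-55278195, plus strand: aggccagaggTAccatgttgaa
Ints6, chr14:62702442-62702463, minus strand: ctcaagcaagTAccttctccat
Olfr194, chr16:59119616-59119637, plus strand: accgattataTAtgagccactt
Nifk, chr1:118332757-118332778, plus strand: caccagtttgTAcaccgacgtt
Bach2, chr4:32501652-32501673, plus strand: cccatgtatgTAtatgagtcca
Gcnt3, chr9:70034507-70034528, minus strand: gagtcagaggTAccacctccac
Otogl, chr10:107821956-107821977, minus strand: gggttctacaTAgtaatatact

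These genes have little in common in their known roles. Tent5b encodes a poly(A) polymerase, Lactb a mitochondrial protein, Acsl5 a long-chain acyl-CoA synthetase, Ints6 a subunit of the Integrator complex and Olfr194 an olfactory receptor. Nifk binds the proliferation marker Ki-67, Bach2 is a transcriptional repressor known from B cells, Gcnt3 is a glycosyltransferase and Otogl belongs to the otogelin family of the inner ear. The Acsl5 site also lay within the span of Zdhhc6. Tent5b, Lactb and Acsl5 had 7 reads each at the site, Ints6 and Olfr194 had 6, and the other 4 had 5.

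A TA within 2 bp of the deposited base was present at 105 of the 109 well supported sites with readable bases, or 96.3% (95% exact Clopper-Pearson interval 90.9 to 99). Among sites of 1 read it was present at 587 of 638, or 92% (89.6 to 94). The difference of 4.32 percentage points did not pass the threshold of 0.05 (two-sided Fisher's exact test, adjusted p 0.162 by Benjamini-Hochberg, 2 tests). It passed without merging (7.63 points, adjusted p 0.0296 by Fisher's exact test) and turned to -3.63 points with 100 bp merging and -1.11 with 1 kb. It was 1.76 points outside dense windows (97.8% against 96.1%) and 1.66 against sites of 2 to 4 reads (adjusted p 0.559 and 0.906, Fisher's exact test). When the A of the TA had to be the deposited base itself, the shares became 74.3% and 66.6% (Fisher's exact test, adjusted p 0.162). The readable sites lie mostly in exons, so they do not stand for introns or for the space between genes.

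Around a TA at the fixed offset, outside dense windows, the flanks of 69 well supported sites had more A or T at some places than at others. The base 3 before the TA was A at 63.8% of them, and the base 3 after it was T at 72.5%. Sites of 1 read had 65.2% and 66.9% at these places (405 sites). Over the 4 bases on each side, A and T made up a mean of 68.3% at well supported sites, 66% at 529 sites of 2 to 4 reads and 62.9% at sites of 1 read. The motif ATAT, searched with the target TA as its middle bases and the same on both strands, surrounded the TA at 18 of 69 well supported sites, or 26.1% (exact interval 16.3 to 38.1), against 80 of 405 sites of 1 read, or 19.8% (16 to 24). The intervals overlap, and these shares were not tested.

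Read support fell off steeply in the plasmid pool. Of the 29460 autosomal sites, 13556 had 1 read, 9974 had 2, 2182 had 3, 1988 had 4, 648 had 5 and 478 had 6. The fall was uneven, with larger drops from 2 to 3 and from 4 to 5 reads than from 1 to 2 and from 3 to 4. Whether 1 count is a read or a mate of a pair is not given, and the cause of the uneven fall was not tested. The well supported sites made up 5.97% of the autosomal sites and held 12186 reads, or 19.3% of the placed reads of the library. Their median was 6 reads (quartiles 5 and 7), 194 had 10 or more, 17 had 20 or more, and the highest had 45. Just outside the threshold, the sites of 4 reads lay in genes in 54.1% of cases and on the plus strand in 53.8%. Just inside it, the sites of 5 reads did so in 55.6% and 52.6%.

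**Figure D1:**
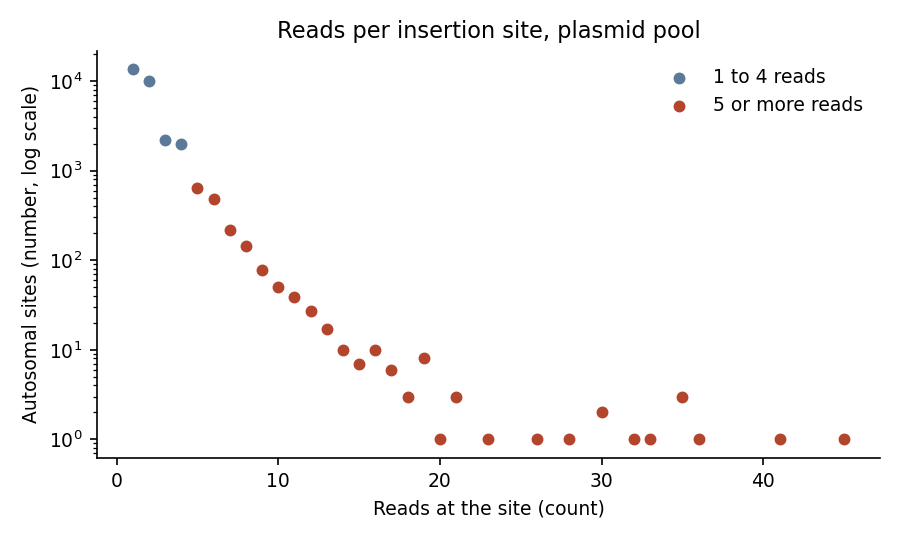
Number of autosomal sites of the plasmid pool (vertical, log scale) at each number of reads (horizontal). The threshold separates 1988 sites of 4 reads from 648 of 5 reads, and the best-supported site has 45.

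Most members were single bases. At 1675 of the 1760 sites all reads fell on 1 deposited position, and 85 (4.83%) joined 2 or more positions, up to 8. The widest site spanned 32 bp. Reads on both strands were seen at 9 well supported sites, or 0.511% (exact interval 0.234 to 0.968), against 11 of 14144 sites of 2 to 4 reads, or 0.0778% (0.0388 to 0.139). A site with more reads has more chances to show both strands, and the members were selected on reads, so these shares are a description. A site of 1 read cannot show both.

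The 10 sites with the most reads were a mixture of ordinary gene bodies, space between genes and predicted genes in dense windows. The highest lay on chromosome 8 at 94266272 in an intron of Nup93, which encodes a scaffold protein of the nuclear pore, with 45 reads. It was followed by a site in an exon of the lincRNA I730028E13Rik (chromosome 9, 61144924, 41 reads). The third lay in an intron of Edc3, which encodes an enhancer of mRNA decapping (chromosome 9, 57733333, 36 reads). Introns of 2 genes for adhesion proteins held others of these 10. One was Chl1, a neural cell adhesion molecule (chromosome 6, 103649271, 35 reads), and one was Ctnna3, an alpha-catenin (chromosome 10, 64594676, 30 reads).

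Outside genes, a site on chromosome 17 at 69833143 had 33 reads, 136 kb from the start of Dlgap1, a postsynaptic scaffold gene. Another on chromosome 12 at 3109898 had 32 reads and joined 8 positions over 26 bp, 27.2 kb from the start of Gm9075. The remaining 3 of the 10 lay in coding exons of predicted genes. These were Gm10800 on chromosome 2, with sites of 35 and 30 reads at 98666931 and 98667236, and Gm21738 on chromosome 14, with 35 reads at 19417229. All 3 fell in dense windows.

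Well supported sites lay inside annotated genes more often than sites of 1 read. They did so in 984 of 1760 cases, or 55.9% (exact interval 53.6 to 58.2), against 6927 of 13556, or 51.1% (50.3 to 51.9). The difference was 4.81 percentage points (odds ratio 1.21, Fisher's exact test, adjusted p 2.36e-04 for 3 gene definitions). Genes cover 48.4% of the annotated autosomal span. The gene share was higher at well supported sites on 16 of 19 autosomes. Against sites of 2 to 4 reads the difference was 2.43 points and did not pass the threshold (Fisher's exact test, adjusted p 0.0811), and at a minimum of 10 reads it was 8.18 points.

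Protein-coding genes showed the larger difference. They held 889 well supported sites, or 50.5% (48.1 to 52.9), against 43.5% (42.6 to 44.3) of the sites of 1 read. The difference was 7.05 points (Fisher's exact test, adjusted p 7.80e-08). Protein-coding genes cover 41.3% of the span. Long noncoding RNA genes without an overlapping coding gene held 84 well supported sites (4.77%) and 868 sites of 1 read (6.4%), and pseudogenes held 11 (0.625%) and 150 (1.11%). These 2 differences were not tested. With a margin of 5 kb added around all genes, the shares were 64.8% and 62.3% (Fisher's exact test, adjusted p 0.0363), and outside dense windows this call was lost (64.1% and 61.8%, adjusted p 0.0689).

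By gene part, 2 of the 5 parts compared differed at an adjusted p below the threshold, which is 40% of them. Introns held 874 well supported sites, or 49.7% (47.3 to 52), against 46.3% (45.5 to 47.2) of the sites of 1 read (difference 3.34 points, adjusted p 0.0222 by Fisher's exact test, 5 parts). The space outside genes held 44.1% against 48.9% (difference -4.81 points, Fisher's exact test, adjusted p 7.87e-04). Neither difference passed the threshold against sites of 2 to 4 reads or at a minimum of 10 reads (Fisher's exact test, adjusted p 0.0513 to 1). The share outside genes is the complement of the share inside genes, so it is no separate result. Adjusted over the 3 gene definitions instead of the 5 parts, that comparison passed at a minimum of 10 reads (Fisher's exact test, adjusted p 0.0249). Among the 194 sites of 10 or more reads, 46.4% lay in introns and 12.9% (8.52 to 18.4) in exons, against 4.78% (4.43 to 5.15) of the sites of 1 read in exons. In that class 7.22% lay in dense windows, and outside them the exon share was 8.33% (4.74 to 13.4).

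Exons took few sites, and at the minimum of 5 reads no exon part passed the threshold. Coding exons held 26 well supported sites, or 1.48% (0.967 to 2.16), against 1.05% of the sites of 1 read (Fisher's exact test, adjusted p 0.143). Exonic sequence of coding transcripts outside the coding part held 39 sites, or 2.22% (1.58 to 3.02), against 1.56% (Fisher's exact test, adjusted p 0.0753). Exons of other transcripts held 45 sites, or 2.56% against 2.17% (Fisher's exact test, adjusted p 0.301). Of the 26 sites in coding exons, 9 lay outside dense windows, which is 0.522% of the 1725 well supported sites there, against 0.754% of the sites of 1 read (Fisher's exact test, adjusted p 0.365). The direction for coding exons was therefore turned when dense windows were left out. Coding exons did pass the threshold at a minimum of 3 reads, with 1.48% (adjusted p 0.0237, Fisher's exact test), and at 10, with 9 of 194 sites or 4.64% (adjusted p 0.00152, Fisher's exact test). Outside dense windows they did not, with 0.944% at 3 reads and 0 of 180 sites at 10 (adjusted p 0.316 and 0.647, Fisher's exact test).

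**Figure D2:**
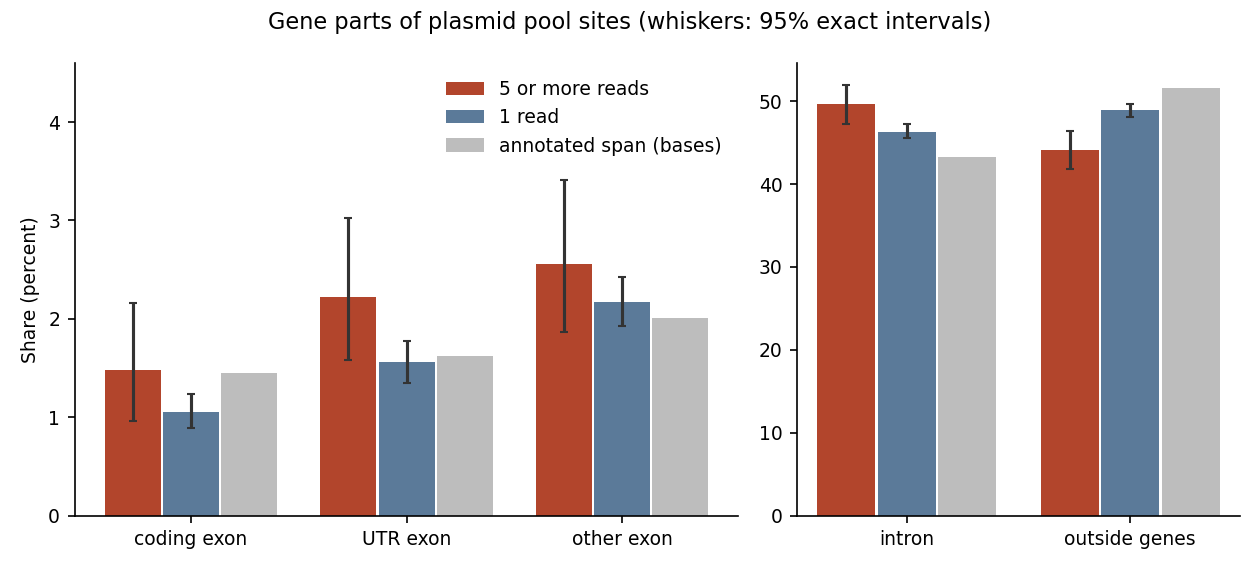
Share of well supported sites, of sites of 1 read and of annotated bases (vertical, percent) in each gene part, with 95% exact Clopper-Pearson intervals as whiskers. Well supported sites stand higher in introns (49.7% against 46.3%) and lower outside genes (44.1% against 48.9%).

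Host genes were of all lengths. Of the well supported sites, 8.69% lay in coding genes of 500 kb or more, against 6.68% of the sites of 1 read. In coding genes shorter than 20 kb lay 5.06% (89 sites), against 3.81%. Of those 89, 10 lay in Gm10800 and 6 in Gm10801, predicted genes of a dense window that held 5 sites of 1 read each. These differences were not tested. The median length of the coding host gene was 131 kb for well supported sites and 124 kb for sites of 1 read. In all, 931 genes held a well supported site and 812 of them were protein-coding, out of 20807 coding genes annotated on the autosomes. Most of these genes, 830, held 1 site, 80 held 2 and 15 held 3.

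There were 6 genes with 4 or more well supported sites. Dcc, which encodes the netrin receptor, spans 1097 kb on chromosome 18 and held 4 sites of 5 to 6 reads, beside 12 sites of 1 read. Exoc4, a subunit of the exocyst that tethers secretory vesicles, spans 725 kb on chromosome 6 and held 4 sites of 5 to 9 reads, beside 7 of 1 read. Spidr, a scaffold protein of DNA repair by homologous recombination, spans 258 kb on chromosome 16 and held 4 sites of 5 to 9 reads, with 2 of 1 read. The other 3 are predicted genes in the 2 densest windows. Gm26870 on chromosome 9 held 11 well supported sites within 38 kb, Gm10800 on chromosome 2 held 10 within 0.755 kb, and Gm10801 beside it held 6 within 1.85 kb.

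Sets of genes with known roles were then counted, each gene with 10 kb on either side. Of 31 autosomal regulators of pluripotency (among them Pou5f1, Sox2, Nanog and Esrrb), 0 had a well supported site, which allows a share of up to 0.170% of the well supported sites. The set covers 0.0656% of the span, so an absence could not be detected at this depth. Sites of 1 read fell on 6 of these genes, with 3 of the 8 sites in or beside Esrrb, an orphan nuclear receptor of naive stem cells. The 12 autosomal genes of cohesin and CTCF likewise had 0 well supported sites and 12 sites of 1 read, on 0.0529% of the span.

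Very long neuronal genes gave more to count. Of 19 such genes on autosomes, 12 held or neighboured a well supported site and all 19 a site of 1 read. They took 21 well supported sites, or 1.19%, and 137 sites of 1 read, or 1.01%, on 1.23% of the span. Lsamp, a neural adhesion molecule, and Macrod2, an ADP-ribose hydrolase, had 3 well supported sites each, with up to 9 and 13 reads. Ctnna3 had 2, of which 1 was the site of 30 reads named above. Cntnap2, a neurexin family gene of 2245 kb, had 0 well supported sites beside 14 of 1 read, and Csmd1 had 0 beside 9.

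Shares near gene starts did not differ past the threshold. None of 8 comparisons, over 4 distances and 2 gene sets, passed the threshold after adjustment (0% called), and 1 had an unadjusted p below it. Within 5 kb of the start of a protein-coding gene lay 163 well supported sites, or 9.26%, against 8.9% of the sites of 1 read (Fisher's exact test, adjusted p 0.721). Within 50 kb the shares were 46.5% each. The median distance was 60.1 kb for well supported sites and 58.6 kb for sites of 1 read. Of the 163, 98 lay downstream of the start and 65 upstream (60.1% downstream), against 50.6% of the 1207 sites of 1 read within that distance. Outside dense windows 56.2% of 130 well supported sites lay downstream, against 48.9% of 1087 sites of 1 read. These differences were not tested.

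The one comparison with a low unadjusted p was that within 1 kb of a coding gene start. There, 44 well supported sites made up 2.5% (1.82 to 3.34), against 1.59% (1.38 to 1.81) of the sites of 1 read (Fisher's exact test, p 0.00769, adjusted p 0.0616). It passed at a minimum of 10 reads, with 6.7% (Fisher's exact test, adjusted p 1.29e-04), and against sites of 2 to 4 reads (adjusted p 0.0267, Fisher's exact test). Without dense windows, where the starts of Gm10800, Gm10801 and other predicted genes lie, the shares were 1.16% and 1.19% (Fisher's exact test, adjusted p 1), and that at 10 or more reads was 1.11%. All 10 of the best-supported sites within 1 kb of a coding start lay in the dense windows of chromosomes 2 and 9.

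Outside dense windows, 20 well supported sites lay within 1 kb of a coding start. The 2 with the most reads were a site of 11 reads, 0.867 kb upstream of Slc31a2, a copper transporter gene (chromosome 4, 62261695), and a site of 10 reads, 0.754 kb upstream of Rnf122, a RING finger gene (chromosome 8, 31111066). A site of 7 reads lay 0.652 kb upstream of Cd74, the invariant chain of MHC class II, and another 0.833 kb upstream of Gpr22 in an intron of Cog5. A site of 6 reads fell on the first base of Fam19a1, which encodes a secreted neural protein, and another lay 0.915 kb upstream of Brd1, a bromodomain gene. The target of the Fam19a1 site is printed because it is at the first base of a coding gene.
Fam19a1, chr6:96113141-96113162, minus strand: cagcgaaatgTAggagcagggc

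**Figure D3:**
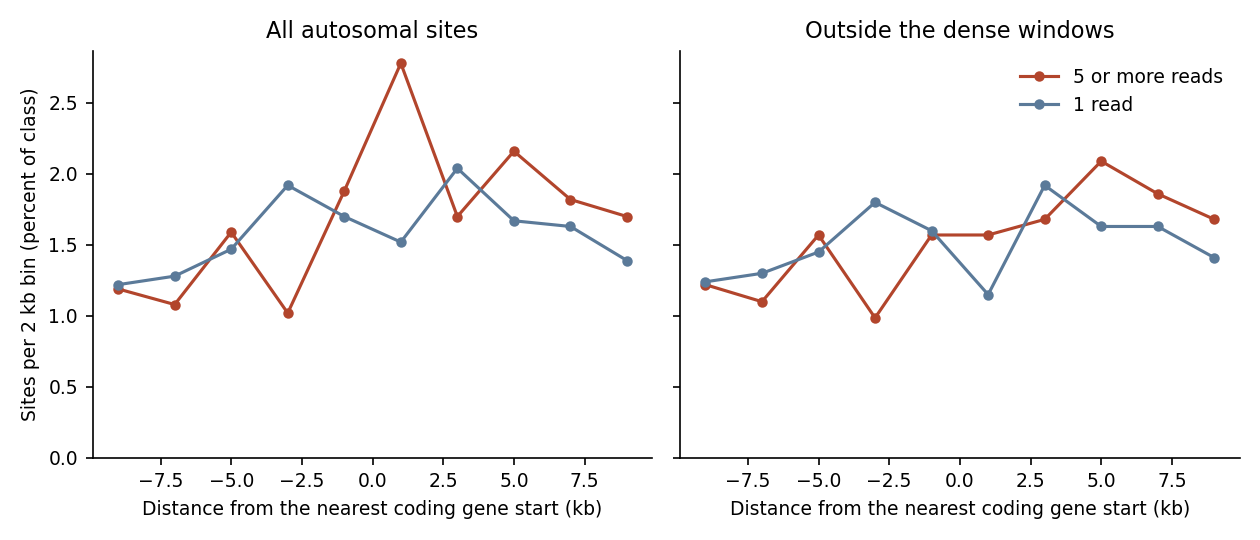
Share of each class (vertical, percent) in 2 kb bins by distance from the nearest coding gene start (horizontal, kb, negative values upstream), for all autosomal sites and outside dense windows. The bin just downstream of the start holds 2.78% of the well supported sites, and 1.57% once dense windows are left out.

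Well supported sites were more often on the plus strand. The strand was that of the position with the most reads. The plus strand held 961 of 1760 well supported sites, or 54.6% (52.2 to 56.9), against 6675 of 13556 sites of 1 read, or 49.2% (48.4 to 50.1). The difference was 5.36 points (odds ratio 1.24, adjusted p 4.62e-05 by Fisher's exact test, 2 tests). Earlier results of these data had shown such a shift, so it is no independent result. The plus share was above 50% on 15 of 19 autosomes among well supported sites and on 6 of 19 among sites of 1 read.

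By reads, the plus share was 50.3% at 2 reads, 49.8% at 3 reads, 53.8% at 4 reads and 56.7% at 10 or more. Outside dense windows that of well supported sites was 54.8% against 49.6% (Fisher's exact test, adjusted p 9.42e-05). Chromosome 2 had the highest plus share, 66.4% of 143 sites, and chromosome 19 the lowest, 40.5% of 42. With each autosome left out in turn, a choice made after the data were seen, the difference ranged from 4.23 points without chromosome 2 to 5.96 points without chromosome 12.

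**Figure D4:**
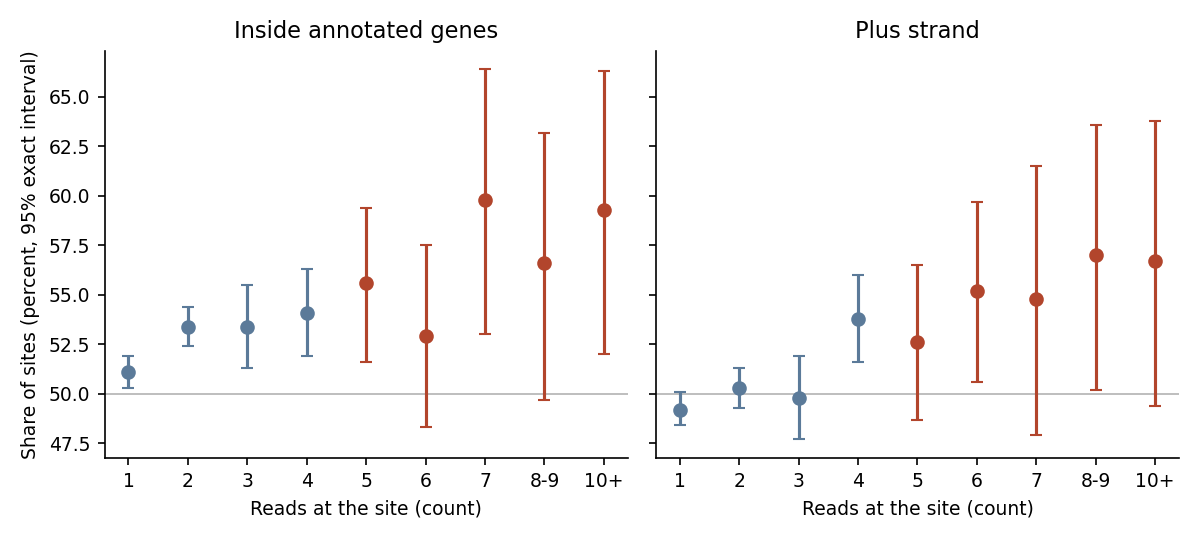
Share of autosomal sites inside genes (left) and on the plus strand (right), in percent with 95% exact intervals, by the number of reads at the site. The gene share runs from 51.1% at 1 read to 59.3% at 10 or more, and the plus share from 49.2% to 56.7%.

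Orientation relative to the host gene was compared over sites whose host genes all lie on 1 strand. The site had the strand of its gene in 441 of 944 well supported cases, or 46.7% (43.5 to 50), against 3250 of 6518 sites of 1 read, or 49.9% (48.6 to 51.1). The difference of -3.15 points did not pass the threshold (Fisher's exact test, adjusted p 0.0757). It passed at a minimum of 3 reads, with -2.19 points (adjusted p 0.0458, Fisher's exact test), and at a minimum of 10 reads, with 39.8% in the direction of the gene (adjusted p 0.0427, Fisher's exact test). It was -1.8 points with 100 bp merging, -1.63 against sites of 2 to 4 reads and -2.49 outside dense windows (adjusted p 0.314, 0.35 and 0.159, Fisher's exact test).

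Well supported sites occurred on every autosome, at a density of 0.737 ± 0.106 per Mb of annotated span (mean ± SD over 19 autosomes of 1 library), and sites of 1 read had 5.7 ± 0.516 per Mb. The SD was 14.3% of the mean for well supported sites and 9.05% for sites of 1 read. Counting error alone would give an SD of 0.0794 and 0.222 per Mb, so the SD was closer to counting error for well supported sites, which are far fewer. Pearson's r of the number of sites with the span was 0.855 for well supported sites and 0.944 for sites of 1 read (Spearman's rho 0.808 and 0.895). All points come from 1 library, and these correlations, which counting error lowers more for the smaller class, are given as a description.

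One of the 19 autosomes (5.26%) had a share of well supported sites that differed from its share of sites of 1 read. Chromosome 7 held 74 well supported sites, or 4.2% (3.32 to 5.25), against 6% (5.6 to 6.41) of the sites of 1 read (odds ratio 0.688, adjusted p 0.0372 by Fisher's exact test, 19 autosomes). Its density of 0.52 per Mb was the lowest, next to 0.632 on chromosome 5. The call was lost at minimums of 3 and 10 reads, without merging and against sites of 2 to 4 reads (Fisher's exact test, adjusted p 0.0682 to 0.679). Chromosome 18 had the highest density of both classes, with 0.982 and 6.83 per Mb, and its shares of 4.89% and 4.41% did not differ past the threshold (Fisher's exact test, adjusted p 0.829).

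Chromosome 9 followed with 0.872 per Mb and chromosome 4 with 0.848. Without dense windows chromosome 9 had 0.782 and chromosome 2 fell from 0.799 to 0.693. Apart from chromosomes 18 and 9 at the top and 5 and 7 at the bottom, neighbours in the order of density differed by less than the SD that counting error gives.

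**Figure D5:**
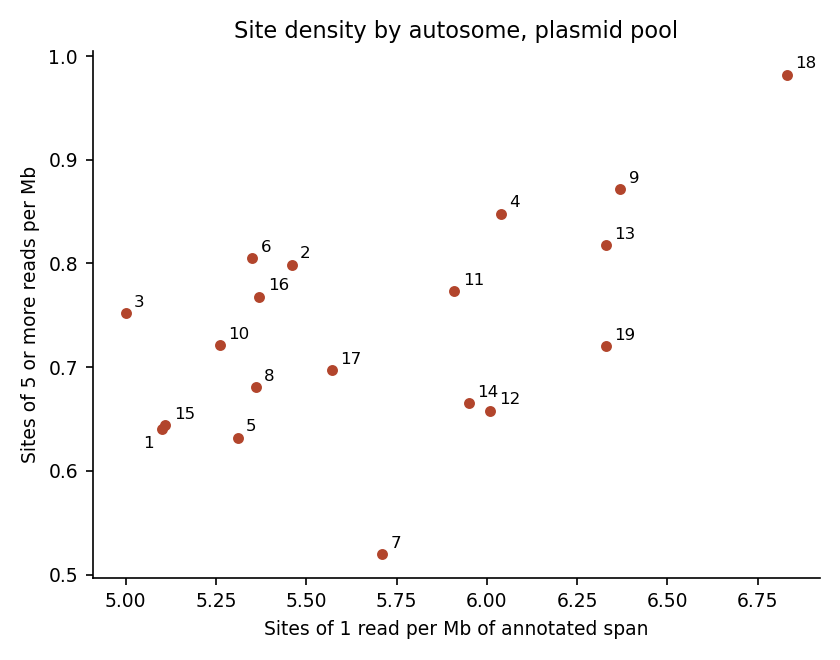
Well supported sites per Mb of annotated span (vertical) against sites of 1 read per Mb (horizontal) for the 19 autosomes, each point labelled with its chromosome. Chromosome 18 is highest on both axes (0.982 and 6.83) and chromosome 7 is lowest on the vertical axis (0.52).

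Pile-ups were compared in windows defined without either class. A dense window is one of 100 kb on a fixed grid with 5 or more sites of 2 to 4 reads. There were 22, covering 0.0915% of the span. Only 3 of them had over 10 sites of 2 to 4 reads, and 19 had 5 or 6, at or just above the minimum. The 22 windows held 35 well supported sites, or 1.99% (1.39 to 2.75), against 158 sites of 1 read, or 1.17% (0.992 to 1.36). The difference of 0.823 points passed the threshold (odds ratio 1.72, adjusted p 0.0101 by Fisher's exact test, 5 window definitions). Neighbouring sites may not be independent, so this p-value may be too small. With positions within 1 kb merged, the direction turned (0.162% against 0.314%), and without merging it turned as well (1.5% against 1.79%). The call was also lost with 3 or more sites a window (adjusted p 0.191, Fisher's exact test) and in windows of 1 Mb (adjusted p 0.175, Fisher's exact test).

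Most of these sites lay in 2 windows, and the call rested on the one of chromosome 2. Without it the shares were 0.919% and 1.06% (Fisher's exact test, adjusted p 0.76), and without that of chromosome 9 they were 1.37% and 0.49% (Fisher's exact test, adjusted p 1.20e-04), both chosen after the data were seen. The window from 98600001 to 98700000 on chromosome 2 held 19 well supported sites with 248 reads, beside 15 sites of 1 read, and 18 of the 19 joined 2 or more positions. They all lay between 98662302 and 98667236, in and beside the predicted genes Gm10800 and Gm10801. The window that ends at 3100000 on chromosome 9 held 11 well supported sites with 111 reads, and 92 sites of 1 read. Another window with over 10 sites of 2 to 4 reads, on chromosome 11 from 3100001 to 3200000, held 0 well supported sites and 16 of 1 read. Of the other 19 dense windows, 4 held 1 or 2 well supported sites each.

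Some of these sites had the same bases, and the shared sequences are printed for that reason. Sites in different predicted genes of both windows had identical 22 bases when read on the strand of the site. One sequence occurred at 4 well supported sites, 2 on chromosome 2 and 2 on chromosome 9, with 16 to 35 reads, and at 9 sites of 1 read.
Sequence shared by Gm10800 (chr2:98666920-98666941 and chr2:98667171-98667192, plus strand) and Gm26870 (chr9:3001001-3001022 and chr9:3000591-3000612, minus strand): aaatgagaaaTAcacactttag
Sequence shared by Gm10800 (chr2:98667192-98667213 and chr2:98666941-98666962, plus strand) and Gm26870 (chr9:3000570-3000591, minus strand): ggacgtgaaaTAtggcgaggaa
Sequence shared by 2 sites of Gm26870 (chr9:3020944-3020965 and chr9:3025738-3025759, minus strand): ggacatgaaaTAtggcgaggaa

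Where copies of a sequence are nearly identical, the position and the read number of a site depend on how the authors placed reads with several matches, which is not stated, so these sites are uncertain. All 10 well supported sites of Gm10800 were on the plus strand and all 11 of Gm26870 on the minus strand, while Gm10801 had 5 on the minus strand and 1 on the plus strand. Over all well supported sites with 22 readable bases, 9 of 98 shared their bases with another, against 37 of 547 sites of 1 read.

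Away from the pile-ups, well supported sites were scattered. The median gap between neighbours on a chromosome was 902 kb and the widest was 12.5 Mb. Of 1741 gaps, 38 were within 10 kb, and 11 were so outside dense windows. Of the 24043 windows of 100 kb, 1580 held 1 well supported site, 72 held 2 and 4 held 3 or more. Apart from the 2 pile-ups, the windows with 3 were both on chromosome 18, from 3400001 and from 20900001, with 17 and 23 reads in all. Any other site of the pool lay within 1 kb of 6.82% (5.68 to 8.1) of the well supported sites and 6% (5.6 to 6.41) of the sites of 1 read, and outside dense windows of 5.1% and 5.06%.

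Some members were also found in the other pool. A site of the remobilized pool lay within 10 bp of 5 well supported sites, or 0.284% (0.0923 to 0.662), and of 4 sites of 1 read, or 0.0295% (0.00804 to 0.0755). The odds ratio was 9.65 (adjusted p 0.00253 by Fisher's exact test, 3 distances). The members were selected on reads, and a site with more reads may have more chances of a match. The shares and p-values at all 3 distances are therefore a description. Outside dense windows the shares were 0.232% and 0.0299% (adjusted p 0.0232 by Fisher's exact test). At a minimum of 3 reads the call was lost (0.101% against 0.0295%, adjusted p 0.116 by Fisher's exact test), and at the same base the numbers were 3 and 3 (Fisher's exact test, adjusted p 0.0232). The labels give both pools the same batch entry.

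All 5 matches had the same strand in both pools. A site on chromosome 17 at 69833143 had 33 reads in the plasmid pool and 1 in the other, at the same base. The site on chromosome 18 at 20912801, 16.7 kb from the start of Trappc8, had 12 reads and 1. That on chromosome 6 at 132076657, 6.87 kb from the start of Gm43975, had 6 reads and 2. The 2 others were matched 9 bp away, each with 1 read in the remobilized pool, and were the Gm10800 site of 35 reads and the site of 32 reads on chromosome 12 at 3109898. Within 1 kb, 19 well supported sites (1.08%) and 31 sites of 1 read (0.229%) had a neighbour in the remobilized pool (odds ratio 4.76, adjusted p 3.43e-06 by Fisher's exact test). Outside dense windows these were 7 (0.406%) and 19 (0.142%), with an odds ratio of 2.87 (adjusted p 0.0232 by Fisher's exact test). None of the 1760 was found in a clonal line within 10 bp, and the control had 0 sites. The cause of the matches was not tested.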

How the data were processed

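Single-base positions, each with a strand, were deposited with whole-number read counts, and no normalization by the authors is stated. The submitters' processing notes name FastQC, BWA and deepTools and the build mm10 (GRCm38), without versions or settings. How duplicates and reads with several matches were treated is not given in the sources used here, and neither is whether 1 count is a read or a mate of a pair.

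Lines without a position were left out. Lines within 10 bp were merged, and a site was placed at its position with the most reads. Sites were annotated with GENCODE M21 in the order coding exon, other exon of a coding transcript, exon of another transcript, intron, outside genes. The span of a chromosome leaves out its first 3 Mb and stops where the last annotated gene stops. Bases were read from GENCODE transcripts, where the exon reached 8 or more bases to either side, or from RefSeq promoter windows (GRCm38.p6), and none of chromosome 18 are printed. Shares were compared by two-sided Fisher's exact tests (Python 3.11.15, scipy 1.17.1) with Benjamini-Hochberg adjustment within each family. Intervals are 95% Clopper-Pearson intervals, and for 0 sites the limit is 3 counts of the total. Both cover counting error only, since the units are sites of 1 library.

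Named were the 10 sites with the most reads, genes with 4 or more members, the best members near coding starts and in coding exons, the windows with the most members (5 by the rule, of which the 4 with 3 or more are described, since 72 windows tie at 2), and members found in the remobilized pool. Members near coding starts outside dense windows, single windows beyond these, and the genes named from the 3 gene lists were picked after their values were seen. The members and lists were chosen with earlier results of these data known. Alternatives were other merging distances, minimum reads, comparison classes, windows, gene sets and tolerances. Merging and the share test were tested on simulated data.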

Additional observations from a re-analysis of the deposited data

Results flagged for a closer look

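Sites with 5 or more reads also occurred outside chromosomes 1 to 19 of the plasmid pool, which the comparisons leave out. There were 63 of them, against 0 sites of any kind in the control without transposons. Chromosome X held 57, chromosome Y 1 and unplaced or unlocalized contigs 5. On chromosome X the well supported sites had a density of 0.34 per Mb, which is 0.461 times the mean of the autosomes, and sites of 1 read had 3.44 per Mb, or 0.604 times. This difference was not tested.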

How the results depend on the processing

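No paired analysis was possible because each group has 1 library. The gene share kept its side of the threshold in 10 of 11 alternatives, with differences from 2.43 points (against sites of 2 to 4 reads) to 8.18, and the plus share in all 10, from 3.31 to 7.46 points. The share in protein-coding genes kept it in all 7, from 3.75 to 10.7 points. The number of well supported sites was 5930 at a minimum of 3 reads and 194 at 10. Gene parts called numbered 3 at a minimum of 3 reads, 1 at a minimum of 10 reads and 0 against sites of 2 to 4 reads, where 0 had an unadjusted p below 0.05. Autosomes called numbered 0 without merging, at minimums of 3 and 10 reads and against sites of 2 to 4 reads (1, 3, 2 and 0 at an unadjusted p below 0.05, Fisher's exact test). The difference within 5 kb of a coding start was -0.587 points without merging, -0.577 outside dense windows and -0.517 with all genes, and that within 1 kb was -0.0273 outside dense windows. The share in dense windows differed by -0.29 points without merging, -0.152 with 1 kb, 0.713 (adjusted p 0.191, Fisher's exact test) with 3 or more sites a window and 0.459 (0.175) in windows of 1 Mb. It was -0.137 points without the densest window of chromosome 2, an alternative chosen after the data were seen. The TA difference was 7.63 points without merging (adjusted p 0.0296, Fisher's exact test), -3.63 with 100 bp and -1.11 with 1 kb. Without merging, 0 sites had both strands. The share found in the remobilized pool differed by 0.0717 points at a minimum of 3 reads (adjusted p 0.116, Fisher's exact test). The cause of these changes was not tested. Sites of 2 to 4 reads could be no alternative for reads on both strands, since they are already its comparison, and no library could be left out. Dense windows are defined by sites of 2 to 4 reads, so a minimum of 3 reads or that comparison class is not independent of them. Few sites with 10 or more reads and few readable bases limit the exon and TA comparisons.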
